A study of Rattus norvegicus with 43 samples.

Results

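RNA of the mammary gland of female Sprague-Dawley rats given Targretin was compared with that of rats given 9-cis retinoic acid (9cRA), on the 7 of the study's 43 arrays whose titles name these agents and this organ: 3 arrays for Targretin and 4 for 9cRA. Each array measured 1 sample on a rat oligonucleotide array with 8740 probe sets other than controls. Targretin was given by gavage at 60 mg/kg body weight and 9cRA in the diet at 100 mg/kg diet, both for 7 days from 100 days of age, so agent, dose and route cannot be told apart. The same organ was also measured on 3 arrays of rats given 4-hydroxyphenylretinamide (4HPR, 782 mg/kg diet) and on 4 arrays of rats given diet only. These arrays entered the fit to estimate the spread and are given below beside the values they bear on. No gavage control is named in the labels, and the labels do not say whether an array is 1 animal or a pool. The p-values thus set each difference against the spread between these samples, which may not be that between animals.

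Targretin (bexarotene) is a synthetic agonist selective for the retinoid X receptors (RXRs), whereas 9-cis retinoic acid activates both the RXRs and the retinoic acid receptors. RXRs pair with many other nuclear receptors, among them the retinoic acid receptors, PPARs, LXRs and the thyroid hormone receptor, and the pairs bind repeats of a short core motif, AGGTCA, near their target genes. The mammary gland of a virgin adult rat is a branched epithelium set in a fat pad, so its RNA comes from epithelial cells, adipocytes, fibroblasts, vessels and nerves.

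The deposited values are array signals on a linear scale, which the authors had brought to a common level on every array. Differences below are Targretin minus 9cRA on the scale of log2(signal + 38.1), with the standard error of the limma fit over the 14 mammary gland arrays, and a probe set passes where its Benjamini-Hochberg adjusted p is under 0.05 over the 6059 probe sets that were bright enough to test. The constant of 38.1 is the 10th percentile of all signals, so that differences of dim probe sets are understated. The number of arrays limits the precision. In bulk RNA, fewer cells of a type and less RNA per cell cannot be told apart.

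The organ label held for all 14 arrays, with the milk protein gene Lalba and the adipocyte gene Fabp4 among the bright signals. Lalba was at 41825, 49887 and 69763 on the Targretin arrays and 18091, 26573, 4788 and 103558 on the 9cRA arrays, and Fabp4 was at 49446, 43938 and 24672 on the Targretin arrays and 46804, 40991, 77427 and 49603 on the 9cRA arrays. Replicate arrays correlated at 0.929 to 0.943 for Targretin and 0.898 to 0.928 for 9cRA, and no array was a copy of another. Several arrays stood apart. Targretin array 3 had a summed signal of 88283 over 23 skeletal muscle markers, against at most 8970 on any other mammary gland array. Its signals of Ckm, muscle creatine kinase, and Tnnt3, fast skeletal troponin T, were 8237 and 10541. Diet arrays 1 and 4 correlated with the 4HPR arrays at 0.944 to 0.963, with diet arrays 2 and 3 at 0.919 to 0.933 and with each other at 0.944. Diet arrays 2 and 3 correlated with the 4HPR arrays at 0.918 to 0.952, which overlaps the range of diet arrays 1 and 4, and with each other at 0.961. The counts against diet are therefore given with and without each pair. Liver transcripts set the agents apart, as described next.

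The comparison of the agents was mostly one of liver transcripts. Of 6059 probe sets tested, 124 passed (2.05%), 9 higher (0.149%) and 115 lower (1.9%) with Targretin than with 9cRA, and the median difference over all probe sets was 0.08. Probe sets were called liver-dominant where the mean signal of the diet liver arrays was at least 4 times that of the diet mammary gland arrays. Of the 499 tested liver-dominant probe sets 98 passed (19.6%), all of them lower with Targretin, and the median difference over the 499 was -0.27. Of the other 5560 probe sets 26 passed (0.468%), 9 higher (0.162%) and 17 lower (0.306%), and the median difference over the 5560 was 0.09. The 124 passing probe sets included 98 with a single gene symbol, which cover 73 genes, 61 of them liver-dominant.

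The presence of liver transcripts was measured for 174 liver-restricted probe sets, chosen for a mean diet liver signal of 8000 or more that was also 20-fold or more above the median in lung. Their median level, as a percentage of diet liver, was, from lowest to highest, 0.559, 0.66 and 0.667 on the Targretin arrays, and ranged from 2.64 to 6.53 with a median of 3.75 on the 9cRA arrays. The 4HPR arrays were at 3.19 to 7.05 and the diet arrays at 3.97 to 5.91. The 3 Targretin arrays lay below all 11 other mammary gland arrays, and the 9cRA arrays overlapped both the 4HPR and the diet arrays. Over these probe sets the log2 signals of each 9cRA gland array correlated with the mean of the 9cRA livers at 0.595 to 0.755, and those of each Targretin gland array with the Targretin livers at 0.159 to 0.228. These correlations are across genes of one organ pair, the genes are not independent replicates, and the points share the probe affinities of the array. In the lungs of the same groups the level was 0.665 to 0.958 with Targretin and 1.31 to 2.02 with 9cRA, against 2.38 to 10.004 with 4HPR and 0.467, 0.565 and 3.46 with diet. The lungs were thus not ordered as the glands were, since 2 of the 3 diet lungs lay below every Targretin lung, and lung signals entered the choice of the probe sets. How liver transcripts came to be in mammary gland samples was not tested.

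**Figure D1:**
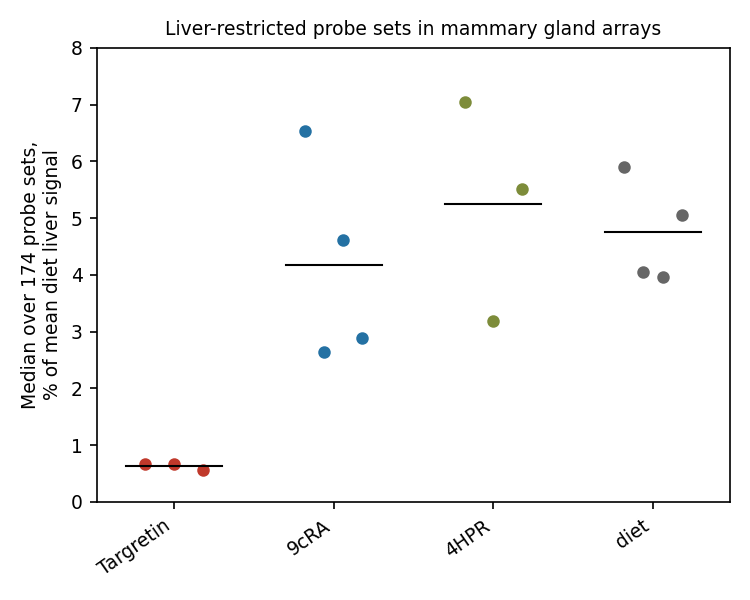
Median signal of 174 liver-restricted probe sets on each mammary gland array, as a percentage of the mean diet liver signal (y axis), by group (x axis). Points are arrays and lines are group means. The 3 Targretin arrays sit between 0.559 and 0.667, below every array of the other groups, and the 9cRA arrays sit between 2.64 and 6.53.

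Genes of hepatocyte proteins held the largest differences. Of 25 tested hepatocyte markers 17 were lower with Targretin than with 9cRA, none was higher, and 8 did not pass. Over all probe sets tested 1.9% were lower, and over liver-dominant ones, which 23 of the 25 are, 19.6%. The median difference of the markers was -3.54, against 0.08 over all probe sets tested. The summed signal over the 30 markers on the array was 10272 to 34197 on the Targretin arrays and 62193 to 181346 on the 9cRA arrays, against 104968 to 212989 on the 4HPR arrays and 133829 to 195047 on the diet arrays. The 9cRA range lay above the Targretin range and overlapped those of 4HPR and diet. The overlap with diet came from 9cRA array 1 (181346), since 9cRA arrays 2, 3 and 4, at 62193, 124364 and 72152, lay below every diet array.

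Promoters of 4 genes described below are shown, as the 250 bases before the start of the gene, because each holds the core motif AGGTCA, in capitals as it reads on the strand of the gene (TGACCT where the match is on the other strand). Cyp2c7, Fabp1 and Ambp were lower with Targretin and Dact2 was higher. The promoters of Cyp2c22, Eci1 and Ldhb, not shown, also hold the motif. Those of Ttr, Cyp2c12, Sult2a1, Ahsg, Sult2a2, Sult2a6 and Rup2, among the largest differences, do not. The sequences are from RefSeq, build GRCr8, at chr1:247966144-247966393 (plus strand) for Cyp2c7, chr4:104749090-104749339 (plus strand) for Fabp1, chr5:81593858-81594107 (minus strand) for Ambp and chr1:63863099-63863348 (minus strand) for Dact2.
Cyp2c7: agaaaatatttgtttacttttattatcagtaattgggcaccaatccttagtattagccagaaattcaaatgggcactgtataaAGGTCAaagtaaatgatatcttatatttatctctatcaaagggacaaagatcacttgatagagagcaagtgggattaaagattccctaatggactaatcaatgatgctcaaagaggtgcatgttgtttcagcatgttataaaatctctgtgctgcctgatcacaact
Fabp1: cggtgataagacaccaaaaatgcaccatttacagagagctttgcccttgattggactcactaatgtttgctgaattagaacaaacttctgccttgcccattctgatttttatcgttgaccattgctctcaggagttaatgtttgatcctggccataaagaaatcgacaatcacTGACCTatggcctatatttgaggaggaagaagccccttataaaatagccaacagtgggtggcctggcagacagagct
Ambp: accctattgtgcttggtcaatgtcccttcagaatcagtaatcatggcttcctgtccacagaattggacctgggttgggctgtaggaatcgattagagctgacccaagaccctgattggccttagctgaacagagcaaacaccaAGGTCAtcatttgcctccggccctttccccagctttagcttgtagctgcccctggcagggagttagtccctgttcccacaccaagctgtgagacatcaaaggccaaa
Dact2: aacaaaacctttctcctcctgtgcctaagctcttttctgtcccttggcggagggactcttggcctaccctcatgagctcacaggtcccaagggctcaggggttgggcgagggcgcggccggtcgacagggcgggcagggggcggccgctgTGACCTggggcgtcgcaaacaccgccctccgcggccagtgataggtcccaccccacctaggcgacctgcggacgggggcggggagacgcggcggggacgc
The motif was found, on either strand, in 12.1% of the 33469 rat promoters searched over the same 250 bases. It was found in 16 of the 54 genes lower with Targretin that had a promoter in the table, and in 1 of the 7 higher genes. A direct repeat of it with 1 base between the copies was in 0.0478% of all promoters and in none of these genes. The liver factor motifs CAAAGTTCA and CAAAGTCCA were in 0.236% and 0.323% of all promoters, and in 2 and 3 of the 54 lower genes. These matches describe letters in a window and are no evidence of binding.

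Among the genes lower with Targretin were cytochromes P450 of the Cyp2c family, which oxidise steroids, retinoids and drugs in liver. Cyp2c7, a retinoic acid hydroxylating P450 of the rat liver, had signals of 5.6, 66.3 and 5.3 on the Targretin arrays, against 11239, 1766, 6653 and 3494 on the 9cRA arrays, 9919.5, 3893 and 9241 on the 4HPR arrays and 10621, 1891, 2277 and 7123 on the diet arrays. The lowest 9cRA array was far above the highest Targretin array, and the difference was -6.33 ± 0.65 (limma adjusted p = 2.03e-05). Its signal on 2 of the 3 Targretin arrays was under the constant of 38.1, so no level relative to liver is given for Targretin; with 9cRA the mean gland signal was 6.36% of that of the liver. Cyp2c12, the female-specific steroid sulphate hydroxylase of rat liver, was at 26, 22.2 and 12.9 with Targretin and 6288, 1951, 2801 and 2306 with 9cRA, a difference of -5.70 ± 0.39 (adjusted p = 4.31e-07). Cyp2c6v1 and Cyp2c23, further liver members of the family, differed by -4.85 ± 0.45 (adjusted p = 8.4e-06) and -3.10 ± 0.43 (adjusted p = 0.000359). In each of these 4 genes the Targretin and 9cRA arrays did not overlap on the probe set given. The same held for 123 of the 124 passing probe sets, so it adds nothing to the call, and for 9.94% of all 6059 tested. A second probe set of Cyp2c6v1 (-2.79, adjusted p = 0.139) and 1 of the 3 of Cyp2c23 (0.52, adjusted p = 0.666) did not pass. Near-identical members of the family can bind the same probe set, so single members are uncertain.

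Carriers and other plasma proteins of the liver were also lower with Targretin than with 9cRA. Ttr, transthyretin, which carries thyroxine and the retinol binding protein in blood, had signals of 45.2, 183 and 23.7 with Targretin and 11242, 3192, 7712 and 4303 with 9cRA, against 17016, 6856 and 12704 with 4HPR and 13053, 15078, 15054 and 11259.8 with diet. The difference between the agents was -5.82 ± 0.45 (adjusted p = 1.57e-06), and both probe sets of the gene passed. Ahsg, fetuin-A, was at 159, 12.7 and 107 with Targretin and 10475, 2183, 7769.9 and 4306 with 9cRA (-5.55 ± 0.52, adjusted p = 8.4e-06). Ambp, the precursor of alpha-1-microglobulin and bikunin, was at 46.9, 66.8 and 54.7 with Targretin and 4775, 1482, 3383 and 1719.5 with 9cRA (-4.78 ± 0.39, adjusted p = 1.66e-06). The protease inhibitor genes Serpina3c and Serpina1 differed by -4.81 ± 0.51 (adjusted p = 2.44e-05) and -4.04 ± 0.42 (adjusted p = 2.15e-05), and Pon1, the HDL-bound paraoxonase, by -3.78 ± 0.31 (adjusted p = 1.57e-06).

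Alb, serum albumin, was not liver-dominant by the 4-fold rule on its brightest probe set, since its signal in the diet glands was itself high. It had 4725, 4706 and 1497 with Targretin, 35000.2, 14906, 22601 and 15752 with 9cRA, 36065, 21916 and 42008 with 4HPR and 43645, 39024, 37890 and 11379 with diet. The difference was -2.67 ± 0.49 (adjusted p = 0.00552), the 3 tested probe sets of the gene all passed (1 of them liver-dominant), and diet array 4 was well below the other diet arrays. Alb was singled out after its values were seen. Among glucocorticoid responsive and stress genes, 2 of 12 tested were lower and none higher (list median -0.03). They were Hp, haptoglobin, by -2.00 ± 0.41 (limma adjusted p = 0.0139) and Tat, tyrosine aminotransferase, by -2.51 ± 0.53 (limma adjusted p = 0.0177). Both are liver-dominant, and 19.6% of liver-dominant probe sets were lower, against 1.9% of all tested, so the count says nothing about the list as such. Hp no longer passed without Targretin array 2 or without Targretin array 3 (adjusted p up to 0.083), and Tat no longer passed without Targretin array 1, Targretin array 3, 9cRA array 1 or 9cRA array 3 (adjusted p up to 0.0891).

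Liver enzymes and a fatty acid carrier followed. Fabp1, the liver fatty acid binding protein, was at 11.3, 22.3 and 19.3 with Targretin and 4602, 1032, 4224 and 1669.5 with 9cRA, a difference of -5.46 ± 0.44 (adjusted p = 1.57e-06). The hydroxysteroid sulphotransferase gene Sult2a1 was at 51.7, 45.9 and 44.2 with Targretin and 4873, 1671, 3435 and 2034 with 9cRA. Its difference of -5.03 ± 0.31 had the smallest adjusted p of the comparison (3.03e-07), and the related Sult2a2 and Sult2a6 differed by -4.69 ± 0.46 (adjusted p = 1.24e-05) and -4.55 ± 0.33 (adjusted p = 6.53e-07). Of the 3 tested probe sets of Sult2a2, 1 did not pass (-0.54, adjusted p = 0.267). Rup2, named for a rat urinary protein and liver-dominant here, differed by -4.87 ± 0.39 (adjusted p = 1.57e-06). The 98 liver-dominant probe sets that passed had a median gland signal of 0.395% of the same group's liver with Targretin and 4.81% with 9cRA, against 6.16% with 4HPR and 6.3% with diet. These 98 passed as lower with Targretin on the same arrays, so a gap between Targretin and 9cRA is built in. For 63 of the 98, every Targretin array was at or under the 40th percentile of its own signals. At that level the size of a difference rests on the added constant. For 0 of the 98 was every 9cRA array at or under that percentile. A probe set dim on all Targretin arrays could be tested only through other groups. The contrast of 63 with 0 thus follows in part from the filter and the call.

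**Figure D2:**
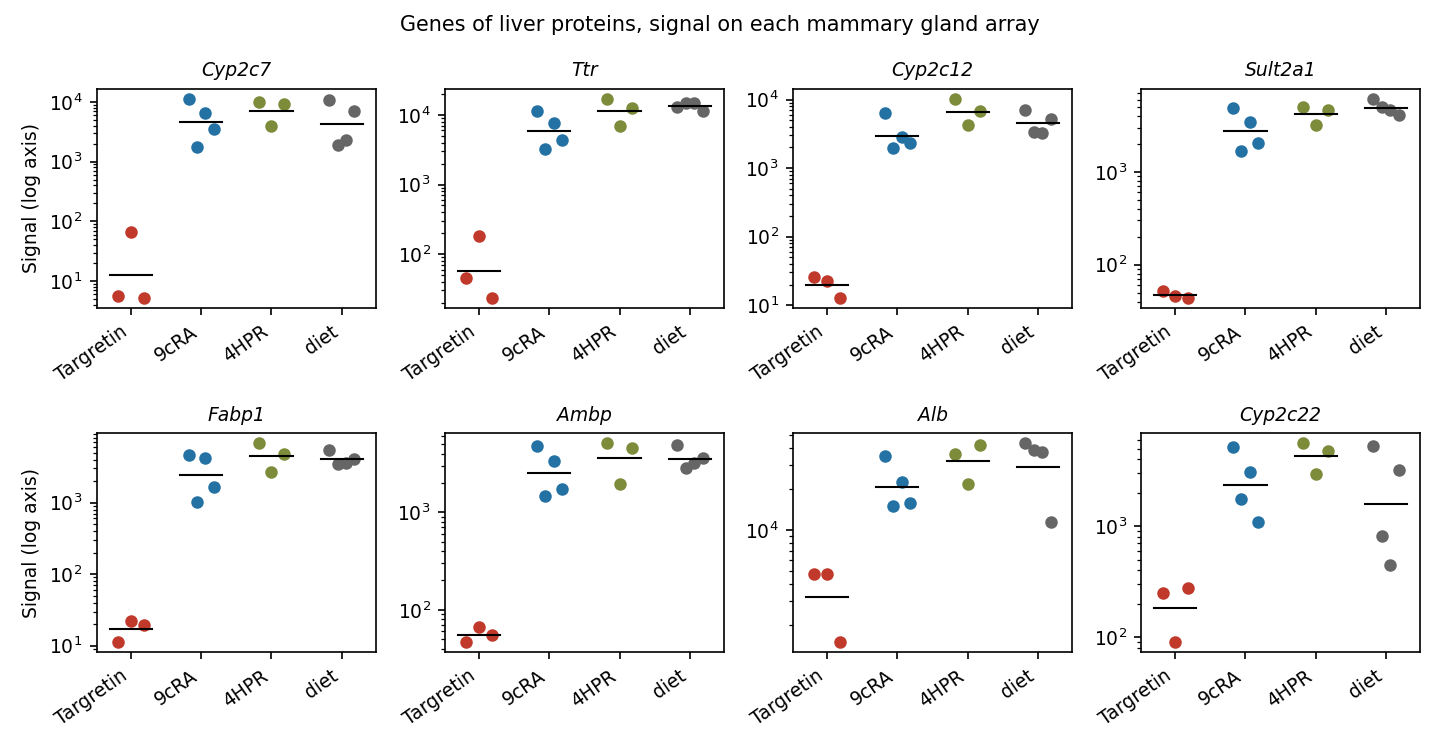
Signal (y axis, log scale) of 8 genes of liver proteins on each of the 14 mammary gland arrays, by group (x axis). Points are arrays and lines are geometric means. For each gene the 3 Targretin arrays lie below the 4 9cRA arrays; for Cyp2c22 the highest Targretin array is at 276 and the lowest 9cRA array at 1098.

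When the liver-dominant probe sets were left out and the remaining 5560 were fitted again, 0 probe sets passed in limma, with 467 at an unadjusted p under 0.05 and a smallest adjusted p of 0.0621. The 26 other probe sets that passed in the fit of all 6059 thus did not pass in the fit without the liver-dominant ones, where their differences were the same. Without Targretin array 3 as well, 4 of the 5560 passed. In simulated data of the same size and spread, 200 of the 6059 probe sets were changed, and 2.99% of the changes of 1.5-fold, 31.3% of those of 2-fold and 71.2% of those of 4-fold were found.

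Few genes outside the liver set were higher with Targretin. Of the 9 such probe sets 8 carry a gene symbol and 1 does not. Aldoc, the aldolase C of glycolysis, had 1659, 2055 and 4642 on the Targretin arrays and 615, 63.6, 190.1 and 1113 on the 9cRA arrays, against 521, 701 and 364 with 4HPR and 215, 211, 129 and 455 with diet. Targretin array 3, which also had the muscle markers, was the highest. The difference was 2.81 ± 0.65 (adjusted p = 0.0312), a brighter second probe set of the gene differed by 0.99 and did not pass (adjusted p = 0.425), and without Targretin array 3 the adjusted p was 0.181. The call was also lost without Targretin array 1, Targretin array 2, 9cRA array 2 or 9cRA array 3.

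Alpl, tissue non-specific alkaline phosphatase, was at 1120.3, 1392 and 1462 with Targretin and 571, 204, 187 and 746 with 9cRA, with no overlap of the groups (1.75 ± 0.41, adjusted p = 0.0349). It no longer passed in 5 of the 7 fits that left out 1 array of the pair of groups (each Targretin array, and 9cRA arrays 2 and 3; adjusted p up to 0.142), and its brighter second probe set did not pass (0.41, adjusted p = 0.595). Muc4, a membrane mucin of epithelia, was at 3851, 6226 and 10021 with Targretin and 1364, 2615, 2039.9 and 3904 with 9cRA (1.41 ± 0.34, adjusted p = 0.0387). It was the 1 passing probe set of the 124 whose groups overlapped: the highest 9cRA array was above the lowest Targretin array. Over all 6059 probe sets the groups did not overlap in 9.94%. Muc4 no longer passed without Targretin arrays 2 or 3, or 9cRA arrays 1, 2 or 3 (adjusted p up to 0.22).

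Dact2, an inhibitor of Wnt and TGF-beta signalling, was at 1179, 948 and 691 with Targretin and 418, 446, 259 and 516 with 9cRA, against 562, 685 and 489.5 with 4HPR and 474, 668, 567 and 633 with diet. The Targretin arrays were the highest of all groups, and the difference was 1.13 ± 0.26 (adjusted p = 0.0276). Pkp4, a junction protein of the armadillo family, differed by 1.07 ± 0.25 (adjusted p = 0.0291) and Acsl3, an acyl-CoA synthetase of lipid droplets, by 0.85 ± 0.20 (adjusted p = 0.0312). Atp6v0a1, a subunit of the vacuolar proton pump, differed by 0.84 ± 0.18 (adjusted p = 0.0218) and Mlnr by 1.43 ± 0.29 (adjusted p = 0.0139). Each of these 5 calls was lost in 2 to 5 of the 7 fits that left out an array. Mlnr lost it without Targretin array 2 or 3, and Dact2 without Targretin array 1 or 2 or 9cRA array 1 or 3. Pkp4 lost it without Targretin array 2 or 3 or 9cRA array 1, 2 or 3, and Acsl3 without Targretin array 1 or 3 or 9cRA array 1, 2 or 4. Atp6v0a1 lost it without Targretin array 1 or 2 or 9cRA array 1, 3 or 4. Of the second probe sets tested, those of Mlnr (0.32) and Atp6v0a1 (0.79) did not pass.

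Lower outside the liver set were 17 probe sets, of which 8 with a symbol cover 6 genes and 9 have no symbol. The 6 genes are Ghr, S100b, Slc1a3, Ntsr2, Crp and Alb. Of these, Alb is a liver protein gene that missed the 4-fold rule, and the target of the Crp probe sets is uncertain. Ghr, the growth hormone receptor, had 8173, 4598 and 4841 with Targretin and 12886, 13258, 25613 and 16708 with 9cRA, against 23607, 13126 and 21330.5 with 4HPR and 21889, 26792, 28031 and 19138 with diet. The Targretin arrays were the lowest of all 14, the difference was -1.53 ± 0.28 (adjusted p = 0.00617), and it passed in all 7 fits that left out 1 array of either group. The other 2 tested probe sets of Ghr differed by -0.59 and 0.05 and did not pass. The liver also expresses Ghr, with a mean diet signal of 15836 there and 21889, 26792, 28031 and 19138 in the diet glands. Of the 18 tested genes of the oestrogen, progesterone, prolactin and growth hormone axis Ghr was the 1 that passed, and the list median was -0.03. Over all probe sets tested 2.05% passed.

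S100b, a calcium-binding protein of Schwann cells and adipocytes, was at 8771, 8404 and 7802 with Targretin and 18668, 20086, 30452 and 12563 with 9cRA (-1.22 ± 0.27, adjusted p = 0.0204). It was the 1 of 9 tested Schwann cell and nerve markers that passed (list median -0.04), and it no longer passed without any 1 Targretin array or without 9cRA array 3 (adjusted p up to 0.085). The sum over 11 such markers was 26967 to 31955 on the Targretin arrays and 37729 to 53582 on the 9cRA arrays, of which S100b itself is a large part. Without S100b the sum over the other 10 was 19165 to 23551 on the Targretin arrays and 19188 to 25166 on the 9cRA arrays, and these ranges overlapped. Slc1a3, a glutamate transporter, and Ntsr2, a neurotensin receptor, were singled out after their values were seen. Slc1a3 was at 2205, 2896 and 2257 with Targretin and 5649.7, 6234, 6882 and 3815 with 9cRA (-1.17 ± 0.23, adjusted p = 0.00995), and it just missed passing without Targretin array 1 (adjusted p = 0.0526). The other 3 tested probe sets of Slc1a3, all dimmer, differed by -0.46, 0.37 and 0.36 and did not pass. Ntsr2 was at 157, 127 and 27.9 with Targretin and 427, 462, 365 and 422 with 9cRA (-1.83 ± 0.36, adjusted p = 0.011).

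For 2 probe sets annotated as Crp, C-reactive protein, outside the liver set, the 9cRA arrays were the highest group. The first was at 1108, 1236 and 1705 with Targretin and 4467, 4531, 3187 and 4997 with 9cRA, against 1047, 826 and 1297 with 4HPR and 1965, 2023, 2795 and 1139.5 with diet. The agents differed by -1.65 ± 0.28 (adjusted p = 0.0029), the Targretin arrays overlapped those of 4HPR and diet, and its difference in liver was -1.19 (adjusted p = 0.00983). Its mean signal was 1493 in diet liver and 2588 in diet lung. All 3 tested probe sets annotated as Crp passed, and the remaining one is liver-dominant. C-reactive protein is known as a liver protein, and what the 2 probe sets outside the liver set measure is uncertain. The other 9 lower probe sets have no gene symbol, and their differences were -1.75 to -2.29. The 2 probe sets annotated as Crp differed by -1.65 and -1.81, and whether they and the unnamed ones measure related transcripts was not tested. Crp was singled out after its values were seen.

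**Figure D3:**
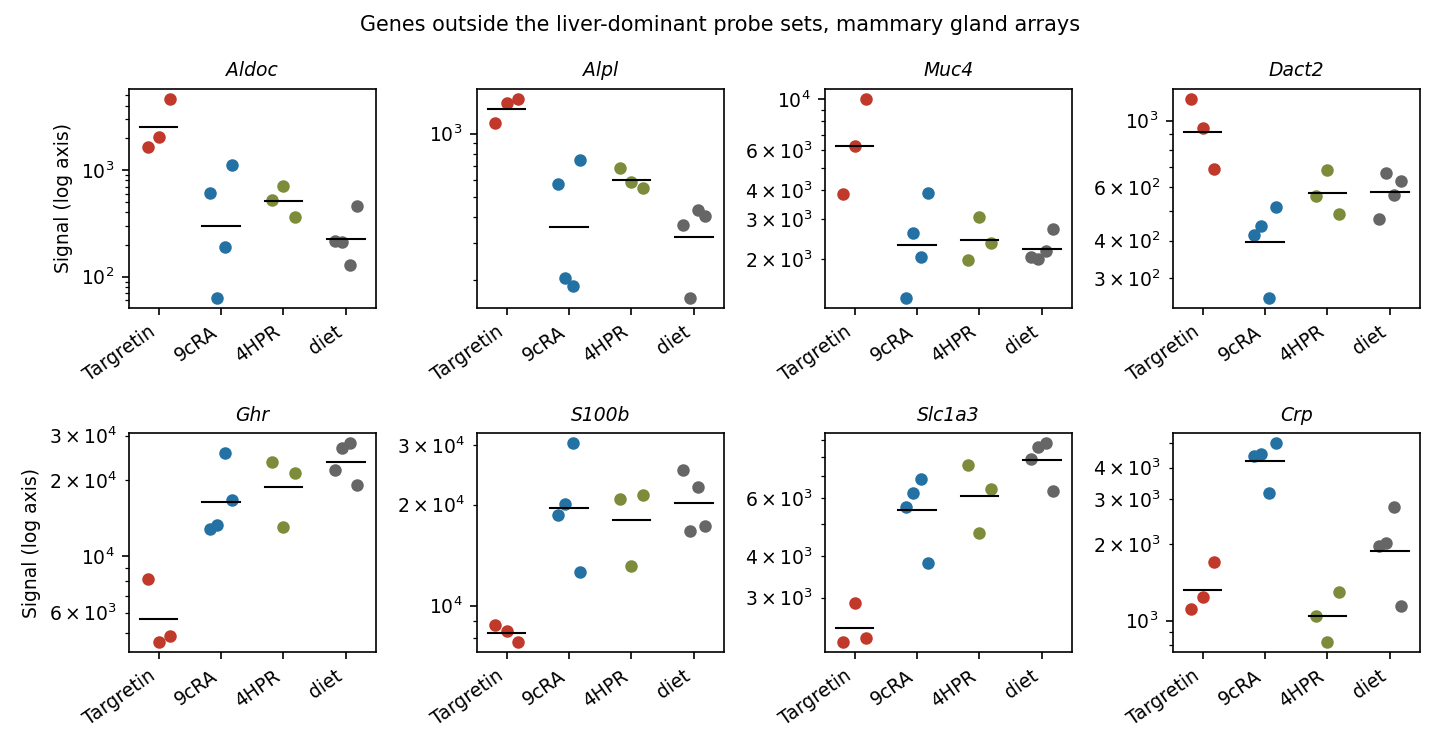
Signal (y axis, log scale) of 8 genes outside the liver-dominant set on each of the 14 mammary gland arrays, by group (x axis). Points are arrays and lines are geometric means. The Targretin mean is the highest for Aldoc, Alpl, Muc4 and Dact2 and the lowest for Ghr, S100b and Slc1a3. For the probe set annotated as Crp the 9cRA arrays, at 3187 to 4997, are the highest.

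Genes of retinoid handling and retinoic acid response did not pass outside the liver set. Of 14 tested, 2 were lower with Targretin and none higher, with a list median of 0.09. Both, Ttr and Cyp2c22, are liver-dominant, and 19.6% of liver-dominant probe sets were lower, against 1.9% of all tested. Cyp2c22, a retinoic acid hydroxylase of rat liver, was at 248, 90.8 and 276 with Targretin and 5134, 1746, 3059.8 and 1098 with 9cRA, against 5586, 2933 and 4765 with 4HPR and 5222, 817, 447 and 3213 with diet (-3.40 ± 0.70, adjusted p = 0.0139), and it no longer passed without Targretin array 2 (adjusted p = 0.0896). Diet arrays 1 and 4 were high and diet arrays 2 and 3 low for this gene.

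Cyp26b1, which clears retinoic acid and is a common target of the retinoic acid receptors, was at 495, 1108 and 521 with Targretin and 58.4, 244, 396 and 86.8 with 9cRA, against 727, 338 and 568 with 4HPR and 562, 59.4, 34.9 and 568.7 with diet. The Targretin and 9cRA arrays did not overlap, but the 9cRA arrays spread widely and the difference of 1.84 ± 0.73 did not pass (95% interval 0.28 to 3.39, adjusted p = 0.367). Crabp2, the binding protein that delivers retinoic acid to its receptors, was at 1829, 2062 and 6287 with Targretin and 905, 944, 1337 and 2086 with 9cRA (1.19 ± 0.46, adjusted p = 0.349); 9cRA array 4 was above Targretin arrays 1 and 2. The receptor genes Rara and Rxra differed by 0.35 ± 0.29 (adjusted p = 0.703) and 1.02 ± 0.47 (adjusted p = 0.462). Rxra was at 496, 505 and 377 with Targretin and 164, 481, 152 and 136 with 9cRA, where 9cRA array 2 alone was within the Targretin range. Rbp4, the retinol carrier, differed by -0.48 ± 0.20 (95% interval -0.91 to -0.06, adjusted p = 0.391) and the retinal dehydrogenase gene Aldh1a1 by -0.44 ± 0.21 (95% interval -0.88 to 0.01, adjusted p = 0.476). Rarb was too dim to test.

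The gene lists of lipid metabolism had few or no passing members. In fatty acid oxidation and PPAR targets 1 of 30 tested genes was lower and none higher (median -0.12), against 1.9% lower over all probe sets. The 1 was Cyp4a1, a fatty acid omega-hydroxylase of liver and a classical PPAR-alpha target, which is liver-dominant and was at 55.4, 100.3 and 37 with Targretin and 946, 478, 589 and 181 with 9cRA (-2.38 ± 0.43, adjusted p = 0.00513; the other 2 probe sets, -0.77 and -0.18, did not pass). Acot1, an acyl-CoA thioesterase, was at 137, 352 and 412 with Targretin and 1172, 625, 1302 and 1113 with 9cRA, without overlap, and did not pass (-1.75 ± 0.53, adjusted p = 0.155). Acaa1b, the peroxisomal thiolase, was at 198, 152 and 152 with Targretin and 987, 364, 885 and 550.1 with 9cRA, also without overlap or a pass (-1.75 ± 0.55, adjusted p = 0.171). Decr1, the mitochondrial dienoyl-CoA reductase, was at 5812, 6427 and 7583 with Targretin and 10084, 11091, 9213 and 10955 with 9cRA (-0.65 ± 0.17, adjusted p = 0.0659).

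In fatty acid synthesis and LXR targets none of 14 passed; 12 had values above 0, and the median was 0.48 against 0.08 over all probe sets. The desaturase gene Scd2 was at 14884, 2544 and 6819 with Targretin and 2579.7, 2788, 3467 and 3525 with 9cRA (1.05 ± 0.42, adjusted p = 0.371). Targretin array 2 lay below all 9cRA arrays and the other Targretin arrays above them, and without it the difference was 1.71 and passed (adjusted p = 0.0106). None of 15 cholesterol synthesis genes passed (median 0.29); Mvd, mevalonate diphosphate decarboxylase, was nearest, at 996, 735 and 763 with Targretin and 372, 217, 485 and 377 with 9cRA (1.15 ± 0.30, adjusted p = 0.0772). Of 18 genes of glucose uptake and glycolysis none passed on the brightest probe set of each (median 0.19). Pfkl, the liver type phosphofructokinase, was at 1289, 846 and 1193 with Targretin and 555, 96.1, 539.5 and 370.3 with 9cRA (1.61 ± 0.42, adjusted p = 0.076), and Ldhb, a lactate dehydrogenase subunit, was at 11458, 6747 and 7421 with Targretin and 12802, 12370, 12799.7 and 12622 with 9cRA (-0.60 ± 0.19, adjusted p = 0.199). Ldhb passed without Targretin array 1 (-0.83, adjusted p = 0.0323).

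Cell type lists of the gland itself had no passing member apart from S100b. Of 13 adipocyte markers none passed (median 0.02): Pparg, the adipocyte partner of RXR, was at 3143, 1872 and 1319 with Targretin and 3713, 3859, 4194 and 2933 with 9cRA (-0.87 ± 0.28, adjusted p = 0.204), and passed only without Targretin array 1 among the fits that left out 1 array (-1.19, adjusted p = 0.0389). Lep, leptin, was at 6768, 6463 and 6272 with Targretin and 5612, 5562, 5109.7 and 4001 with 9cRA (0.37 ± 0.19, adjusted p = 0.514). Of 18 epithelial and milk protein markers none passed, although 15 had values above 0 (median 0.35). Muc1, an apical epithelial mucin, was at 1597, 2302 and 2458 with Targretin and 986, 1235.2, 1285 and 1688 with 9cRA (0.69 ± 0.22, adjusted p = 0.202), and Lalba, alpha-lactalbumin, spread over the 9cRA arrays more widely than between the groups (1.25 ± 0.70, adjusted p = 0.555). None of 9 fibroblast markers passed (median -0.34), none of 32 matrix genes (median -0.15) and none of 29 oxidative phosphorylation genes (median -0.2). Lox, the collagen cross-linking lysyl oxidase, was at 2847, 1671 and 1471 with Targretin and 2997, 4087, 4276 and 2964 with 9cRA (-0.87 ± 0.25, adjusted p = 0.129); it passed without Targretin array 1 (-1.15, adjusted p = 0.0271).

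None of 18 skeletal muscle markers passed (median 0.55), and Ckm and Tnnt3 differed by 2.20 ± 0.76 (adjusted p = 0.249) and 1.84 ± 0.70 (adjusted p = 0.334), with the high values on Targretin array 3. The lists of glutathione and xenobiotic enzymes (29 genes), MHC class II and interferon genes (18), heat shock genes (22), immediate early genes (20), cell cycle genes (19), adipocyte storage genes (19), clock genes (8), thyroid genes (4), brown fat (5), smooth muscle (10), B cell (3), T cell (15), macrophage (10), mast cell (9), endothelial (9) and erythrocyte markers (5) each had no passing member. Neutrophil markers were too dim to test.

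**Figure D4:**
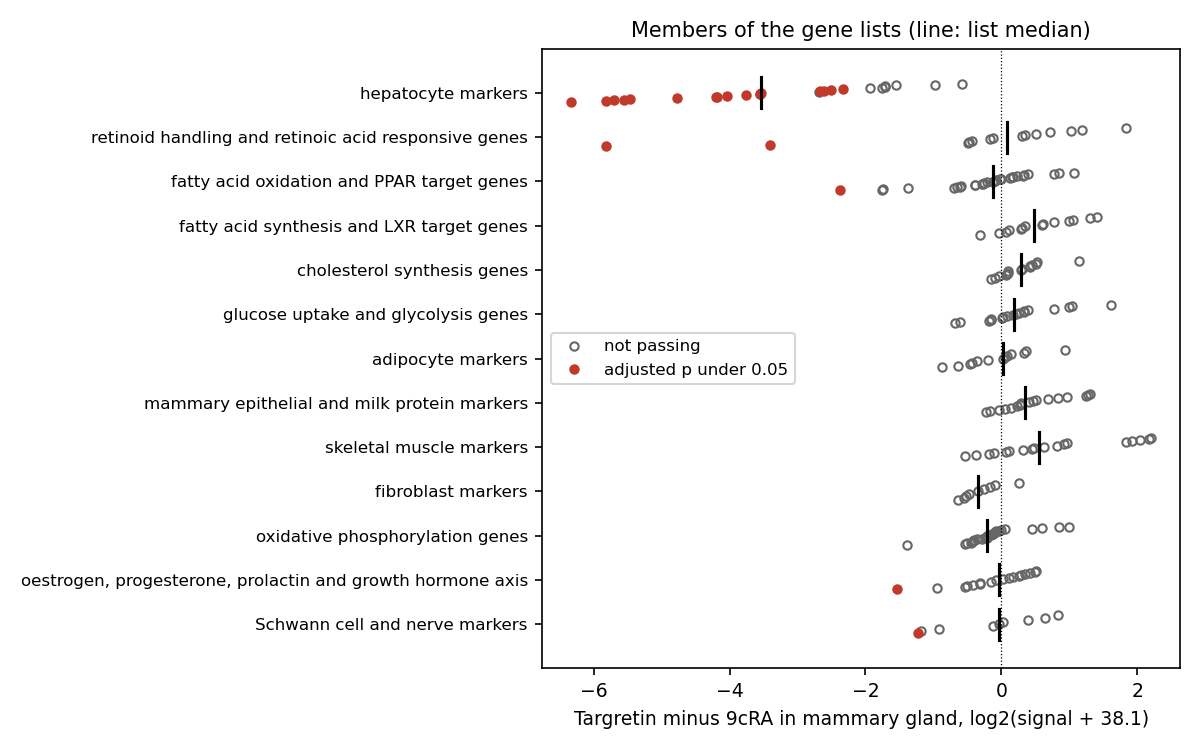
Difference of Targretin minus 9cRA on the log2(signal + 38.1) scale (x axis) for each tested member of 13 gene lists (y axis), with 1 probe set per gene. Filled points passed, open points did not, and lines are list medians. The hepatocyte markers lie far to the left with a median of -3.54, and the other list medians lie between -0.34 and 0.55.

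The difference between the agents was also compared between organs. The difference Targretin minus 9cRA in gland minus that in liver passed for 177 of 5437 probe sets (3.26%), 43 higher (0.791%) and 134 lower (2.46%); without liver-dominant probe sets 76 passed. Genes that were higher with Targretin than with 9cRA in liver led this test. Acot1 had a mean signal of 39556 in Targretin livers and 117 in 9cRA livers (liver difference 8.21 ± 0.63), while the gland difference was -1.75; the difference between organs was -9.96 (adjusted p = 2.65e-09). The 9cRA glands held more Acot1 signal, 1172, 625, 1302 and 1113, than the mean of the 9cRA livers. For Acaa1b the liver difference was 4.44 and the gland difference -1.75 (organ difference -6.19, adjusted p = 3.01e-08). Cyp2b2, a phenobarbital-inducible P450, was at 32612 in Targretin livers and 1406 in 9cRA livers, and at 254, 495 and 687 in Targretin glands and 1756, 767, 995 and 678 in 9cRA glands (organ difference -5.78, adjusted p = 1.44e-07).

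Among mitochondrial oxidation genes, Cpt2, a carnitine palmitoyltransferase, differed by 2.35 in liver and -0.13 in gland (organ difference -2.48, adjusted p = 1.59e-06), and Eci1, an enoyl-CoA isomerase, by 1.8 in liver and -0.69 in gland (organ difference -2.49, adjusted p = 2.14e-06). Eci1 was at 6161, 8423 and 7544 in Targretin glands and 10534, 10141, 10892 and 17005 in 9cRA glands, without overlap, and the gland difference itself did not pass (adjusted p = 0.175). Dact2 was higher with Targretin in both organs, by 1.13 in gland and 4.23 in liver (organ difference -3.1, adjusted p = 2.19e-06). Scd2 was 4.72 higher in liver (organ difference -3.67, adjusted p = 8.29e-05). For the liver genes the organ difference had the sign of the gland difference: Ttr differed by -5.82 in gland and -0.25 in liver, and Fabp1 by -5.46 in gland and 0.2 in liver.

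Against lung, 18 of 5498 probe sets passed (0.327%), 3 higher (0.0546%) and 15 lower (0.273%). The lower ones included Serpina1 (organ difference -4.2, adjusted p = 1.34e-04), Pon1 (-3.96, adjusted p = 1.77e-04) and Cyp2c23 (-3.06, adjusted p = 0.00191), whose lung differences were 0.17, 0.18 and -0.03. Other liver genes were also lower with Targretin in lung, without passing there: Cyp2c7 (-4.65), Ttr (-3.41), Fabp1 (-3.40) and Alb (-4.58), each with a limma adjusted p = 0.298. For these genes the gland minus lung difference did not pass either. Lcn2, lipocalin 2, a secreted iron-siderophore binding protein, was higher in that test (3.75, adjusted p = 0.0093): it was at 24543, 24636 and 37409 in Targretin glands and 13829, 18284, 6031 and 40439 in 9cRA glands, and averaged 1487 in Targretin lungs and 16219 in 9cRA lungs. Neither organ's own difference passed for Lcn2 (gland 0.84, lung -2.91). With the liver-dominant probe sets left out, 3 passed. The count of 18 was 11 without Targretin array 2, 32 without 9cRA array 2, 7 without 9cRA array 3 and 32 without 9cRA array 4.

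**Figure D5:**
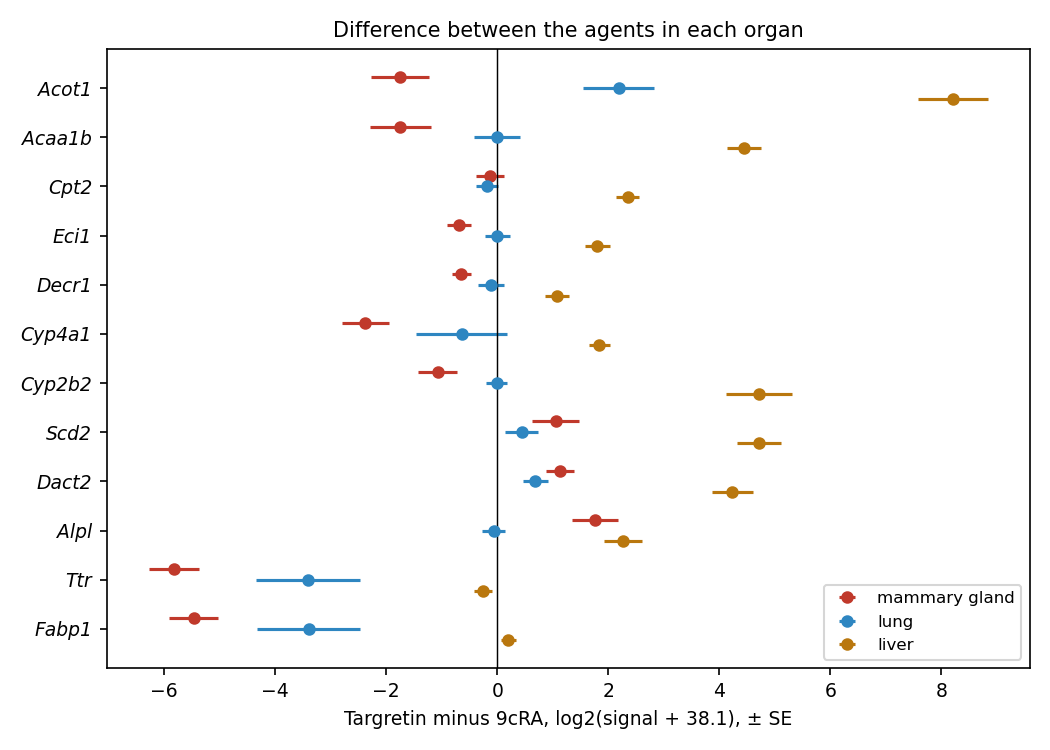
Difference of Targretin minus 9cRA on the log2(signal + 38.1) scale (x axis) for 12 genes (y axis) in mammary gland, lung and liver, each from the fit of that organ; bars are standard errors. Acot1 lies at -1.75 in gland, 2.18 in lung and 8.21 in liver. Ttr and Fabp1 lie far below 0 in gland, at -3.41 and -3.40 in lung, and near 0 in liver.

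The comparisons of either agent with diet share the diet arrays. Targretin differed from diet in 796 of 6059 probe sets (13.1%), 482 higher (7.96%) and 314 lower (5.18%), and 9cRA in 0, with 1130 at an unadjusted p under 0.05 in limma and a smallest adjusted p of 0.131. These counts rest on the diet arrays that stood apart. Without diet arrays 1 and 4 the counts were 1266 for Targretin and 589 for 9cRA, and without diet arrays 2 and 3 they were 171 and 0. Leaving out diet array 1 alone gave 147 for 9cRA, and leaving out diet array 2 or 3 alone gave 375 or 368 for Targretin, and leaving out Targretin array 1, 2 or 3 gave 514, 338 or 409. The count of Targretin against 9cRA was 129 and 124 in the same pair of fits. For genes outside the liver set, the following values are with all 4 diet arrays, and they were not computed without each pair. Targretin minus diet was 3.25 for Aldoc (adjusted p = 0.00598), -2.06 for Ghr (adjusted p = 0.000292), -1.27 for S100b (adjusted p = 0.00754), -1.67 for Slc1a3 (adjusted p = 0.000276) and 1.47 for Muc4 (adjusted p = 0.013). For 9cRA minus diet the values were 0.44 for Aldoc, -0.53 for Ghr, -0.05 for S100b, -0.50 for Slc1a3 and 0.06 for Muc4, and none passed. Dact2 passed against diet with neither agent (0.63 ± 0.26 for Targretin, adjusted p = 0.112, and -0.50 ± 0.24 for 9cRA, adjusted p = 0.27).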

How the data were processed

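RNA of liver, lung and mammary gland was measured on 43 rat arrays. The deposited values are MAS5 signal intensities on a linear scale, per the submitters' processing notes, and the trimmed means of the arrays, 1501.778 to 1503.290, show that the authors had scaled them globally. The deposited intensities were turned into log2(signal + 38.1) and a probe set was kept where 3 or more mammary gland arrays had it above their own 40th percentile. Probe sets were named by the platform annotation: 7006 of 8740 have 1 symbol, 308 have several and 1426 have none, and 6985 matched the gene table by Entrez ID.

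Groups were compared with limma 3.58.1 in R 4.3.3 (lmFit, eBayes with trend, Benjamini-Hochberg adjustment) over the 14 mammary gland arrays in 4 groups, and organ differences over all 43 arrays. Each gene in a list counts once, by its brightest probe set. Where a gene had several probe sets, the text says where they disagreed. The members and the 32 gene lists were chosen with earlier results of these data known, so they support nothing independently. Eligible to be named were up to 15 of the largest passing differences each way with 1 symbol and up to 4 passing members of each list (otherwise 2). A set of retinoid genes and the 8 smallest p-values of each organ difference were also eligible. Not every eligible gene was described. Those left out include Gsta1 (limma adjusted p = 0.0619), Pnpla3 (limma adjusted p = 0.28), and Atp1b1, Prkce and Sec11a of the organ differences. Rxrg differed by -0.12 (adjusted p = 0.914).

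The procedure was tested on simulated data. The labels do not say that replicate numbers pair the samples. Same-numbered Targretin and 9cRA gland arrays had residual correlations of -0.156, -0.0144 and 0.0129, too few values to tell whether the numbers pair them. Alternatives were quantile normalization, no filter, a 4 times larger constant, a replicate block, array weights, no trend, only the groups compared, each array left out, and liver-dominant probe sets left out. Promoter sequences are from RefSeq.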

Additional observations from a re-analysis of the deposited data

Results flagged for a closer look

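In 6 of 116 gene and group combinations with 4 arrays, 1 array lay far from the others; chance alone flags some such groups, at a rate of 5%. Alb was at 11378.6 on diet array 4, against 37890 to 43644.6 on the other diet arrays, and Tat was at 159.8 on diet array 4, against 814.8 to 931.2. Pon1 was at 1234.9 on 9cRA array 2, against 2386.6 to 2539.3 on the other 9cRA arrays, and Rxra at 481.2 on the same array, against 136.2 to 163.7. Eci1 was at 17004.7 on 9cRA array 4, against 10141.2 to 10892.4. Lalba was at 16578.1 on diet array 1, against 37280.9 to 42237.6.

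The difference Targretin minus 9cRA was not the same in the mammary gland as in another organ for several of the 58 genes described, by the test of the difference itself. Against liver, the gland difference was lower, in log2 units, for Cyp2c7 (-5.87), Ttr (-5.57), Cyp2c12 (-5.37), Sult2a1 (-4.72), Ahsg (-4.94), Fabp1 (-5.66), Ambp (-4.08), Serpina3c (-3.87), Cyp2c6v1 (-4.71), Sult2a2 (-4.71), Sult2a6 (-4.42), Rup2 (-4.48), Cyp2c22 (-3.62), Tat (-3.34), Cyp4a1 (-4.21), Pon1 (-3.03), Serpina1 (-3.30), Cyp2c23 (-3.08), Dact2 (-3.10), Aldh1a1 (-1.88), Acot1 (-9.96), Acaa1b (-6.19), Cpt2 (-2.48), Eci1 (-2.49), Decr1 (-1.73), Scd2 (-3.67) and Cyp2b2 (-5.78). It was higher for Muc4 (1.70) and Pkp4 (1.21). Against lung it was lower for Sult2a1 (-3.73), Ambp (-3.53), Sult2a6 (-3.16), Pon1 (-3.96), Serpina1 (-4.20), Cyp2c23 (-3.06) and Acot1 (-3.94), and higher for Lcn2 (3.75). The cause of these differences was not tested.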

How the results depend on the processing

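The count of 124 probe sets for Targretin against 9cRA stayed between 88 and 138 under quantile normalization, no filter, a 4 times larger constant, array weights, no trend and a fit of only these groups, and between 96 and 140 when 1 array was left out. It was 0 without liver-dominant probe sets, 0 without every probe set higher in diet liver than in diet gland, and 4 without Targretin array 3 and liver-dominant probe sets together. Leaving out diet arrays 1 and 4 or 2 and 3, every probe set higher in liver, or array 3 with the liver-dominant sets was chosen after seeing the data. Targretin against diet, 796, was 1308 with array weights, 508 without liver-dominant probe sets, 207 without every probe set higher in liver, 1266 without diet arrays 1 and 4, 171 without diet arrays 2 and 3 (44 higher, 127 lower), and 338 to 1057 without 1 array. The 0 of 9cRA against diet was 589 without diet arrays 1 and 4 and 0 to 147 without 1 array. The organ difference against liver, 177, was 76 without liver-dominant probe sets and 136 to 201 without 1 array; that against lung, 18, was 8 with the larger constant, 3 without liver-dominant probe sets and 7 to 32 without 1 array. With a block for the replicate number in the gland fits, the counts were 123, 611 and 0. In that gland fit Dact2, Pkp4, Acsl3 and Atp6v0a1 no longer passed and Crabp2 did (limma adjusted p = 0.0485). For the organ differences the block was instead agent with replicate number, which links the organs, and the counts were 214 and 25. The main organ fits had no block, and the labels do not say whether such arrays came from 1 animal. Cpt2, -0.13, was 0.017 without Targretin array 2, and -0.24 to 0.017 over the fits without 1 array. Ghr, Alb and the probe set annotated as Crp, which passed without any 1 array, had limma adjusted p = 0.0621 without liver-dominant probe sets. Signals near the 40th percentile leave the sizes of the largest differences to the added constant.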
